A study of Equus caballus with 68 samples.

Results

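The last interval of culture in healthy joint fluid, from 6 d to 10 d, was examined in equine bone marrow mononuclear cells (BMNC), the fraction of marrow that holds monocytes, macrophages, lymphocytes and immature blood cells. The comparison took 15 of 68 RNA-seq libraries, chosen by label alone: 8 libraries of BMNC kept in normal synovial fluid (SF) for 6 d and 7 libraries kept in SF for 10 d. The 8 donors were healthy Thoroughbreds aged 3 to 9 years, 6 geldings and 2 mares, and each horse's cells were grown in that horse's own undiluted, cell-free fluid. SF came from healthy middle carpal joints, sampled while the neighbouring radiocarpal joints of the same horse were inflamed by injected lipopolysaccharide, and more fluid was added during culture. Catnip, Dealings, Dreamer, Lurie, Moon, Ollie and RimRun gave both libraries, and Flash gave 6 d only. The other libraries were uncultured BMNC (0 h), BMNC in SF at 48 h and 96 h, and BMNC in fluid from the same horses' joints with induced synovitis (ISF) at the same 4 times. Each library came from 1 well of 1 horse, with no pooling, so horses were the replicates, and every library held a mixture of cell types. In such bulk RNA, fewer cells of a type cannot be told apart from less RNA per cell.

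Marrow cells placed in culture lose and gain populations as well as changing state. Neutrophil precursors pack their granules early in their development and are short-lived outside marrow, whereas monocytes attach, mature into macrophages and can fuse into large cells that share genes with the bone-resorbing osteoclast. Macrophages also answer interferons with a broad set of antiviral genes, and the few stromal cells carried over from marrow are known to divide on plastic and to make collagen matrix.

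Values were GeTMM, a normalised read count per kilobase of gene that is also scaled between libraries, and levels of different genes are compared below only on this scale per length. Reads on genes, recovered from the steps of the values, came to 19.7 to 24.7 M per library at 6 d and 19.9 to 27.1 M at 10 d. The macrophage markers CD68, CD163, MRC1, MSR1 and CSF1R were above 0 in all 15 libraries, with a mean log2(GeTMM + 1) of 8.07 to 9.34 at 6 d and 8.29 to 9.22 at 10 d. T cell, B cell and neutrophil precursor markers were also above 0 in every library. At 10 d the mean log2(GeTMM + 1) was at least 2.48 for T cell and 2.83 for B cell markers, so the cultures remained mixed. For neutrophil precursor markers it was as low as 0.499 at 10 d. Values that low rest on few reads and do not show that these cells remained in every culture.

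One library stood apart before any comparison. The SF 6 d library of Moon had a GeTMM sum of 2321940 and 12797 genes above 0, against at least 15366 genes in each of the other SF 6 d libraries. Over all genes tested, its root mean square difference from the group median was 1.57 on the log2 scale, against 0.40 to 0.67 in the other 14 libraries. The difference followed gene length: genes of 4000 bases and more had a median log2 difference of -0.86 from the other SF 6 d libraries, and genes of 1000 to 2000 bases one of -0.24. Genes under 500 bases had a median difference of 0.00. Among genes with a median of at least 10 GeTMM, a restriction chosen after the values over all genes were seen, the difference ran from 1.25 under 500 bases to -1.22 at 4000 bases and more. Results are therefore given with all libraries and again without this library.

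**Figure D1:**
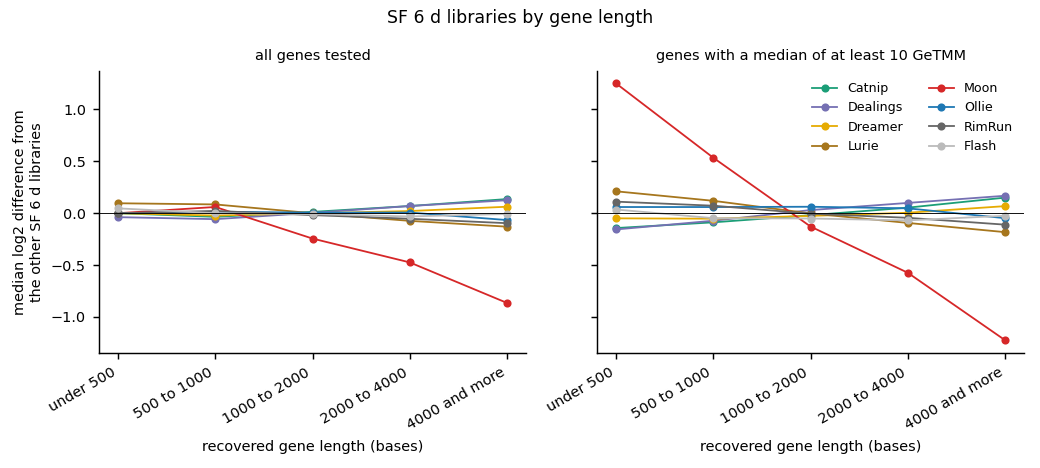
Each line is 1 SF 6 d library; the x axis gives gene length in bases, recovered from the values, and the y axis the median log2 difference from the other SF 6 d libraries, for all genes tested (left) and for genes with a median of at least 10 GeTMM (right). Moon's library falls to -0.86 on the left and runs from 1.25 to -1.22 on the right, while the other libraries stay near 0.

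Of 14570 genes tested, 1450 (9.95%) differed between SF 10 d and SF 6 d at an FDR under 0.05 in limma with a term for horse, 885 (6.07%) upregulated and 565 (3.88%) downregulated at 10 d. Without Moon's SF 6 d library 892 genes (6.12%) were called, 536 (3.68%) upregulated and 356 (2.44%) downregulated. The calls shared by both fits numbered 704 (4.83%), with 455 upregulated (3.12%) and 249 downregulated (1.71%), and all 704 had the same direction. These shares of all genes are the ones to set beside the counts of every list below. The median log2 fold change of all genes was 0.05 with the library and 0.00 without it. Downregulated genes whose call was lost without the library had a median length of 1150.5 bases, against 1575.5 for all genes tested. A change of at least 1 on the log2 scale was reached by 345 called genes (2.37%). In 1332 genes (9.14%) the direction was the same in all 7 horses, and 809 of these were called. The exact permutation test within 7 horses cannot give a p below 0.0156, and no gene passed it after adjustment over all genes, the lowest adjusted p being 0.171. The calls rest on the fit of all libraries, which shares 1 estimate of the spread: with only the 15 SF libraries and a term for horse (called the SF-only fit here) 174 genes were called, and 558 without Moon's SF 6 d library.

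**Figure D2:**
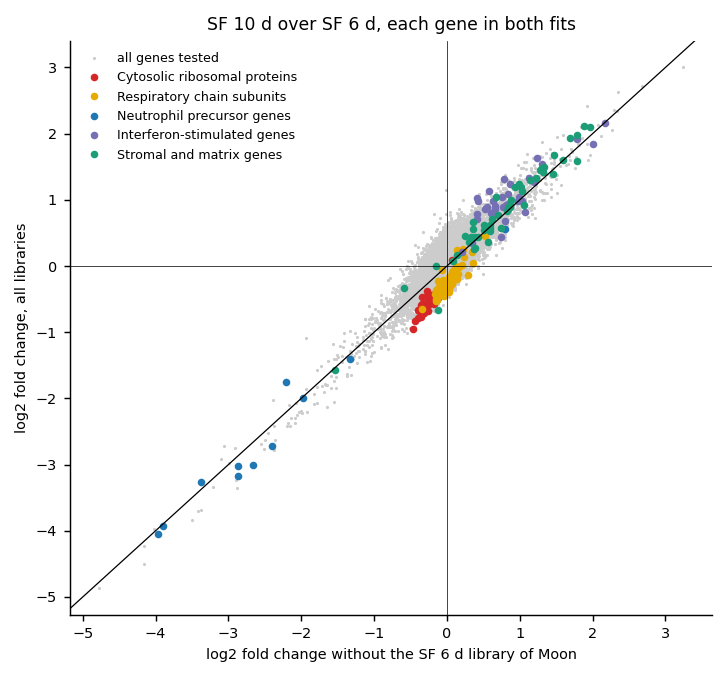
Each point is 1 gene; the y axis gives the log2 fold change (SF 10 d over SF 6 d) with all libraries and the x axis the same without Moon's SF 6 d library, with the line of equality drawn. Neutrophil precursor genes lie near the line, with medians of -3.01 and -2.66, while ribosomal protein genes move from a median of -0.57 to -0.27.

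The clearest fall was in genes of neutrophil granules. Of 11 neutrophil precursor genes tested, 9 were downregulated both with and without Moon's SF 6 d library, beside 1.71% of all genes. The median log2 fold change of the list was -3.01 with that library and -2.66 without, beside 0.05 and 0.00 over all genes. Leaving out any 1 horse left 8 or 9 called. The SF-only fit called 8, and with no term for horse it called 0 by limma, 7 having an unadjusted p under 0.05. ELANE (neutrophil elastase) was at 14.9, 356 and 654 GeTMM (lowest, median and highest) at 6 d and at 1.07 and 15.4 GeTMM (lowest and median) at 10 d. All 7 horses fell, and the groups overlapped only through Dealings, the lowest horse on each day: the other 7 values at 6 d began at 134.2 GeTMM, above every value at 10 d. The log2 fold change was -3.92 (SE 0.55, FDR 2.89e-06), and -3.90 without the library. MPO (myeloperoxidase) went from a median of 154 GeTMM (13.5 to 405) to 18.4 GeTMM (0.0591 to 129), a log2 fold change of -3.26 (SE 0.49, FDR 1.16e-05). AZU1 (azurocidin, of the same granules) went from 478 GeTMM (22.0 to 1037) to 31.9 GeTMM (0.0645 to 178), with a log2 fold change of -4.04 (SE 0.53, FDR 1.03e-06). Dealings was lowest and Catnip highest on both days for MPO and AZU1, except that Moon held the highest AZU1 value at 6 d.

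Genes of the later granules and of neutrophil maturation were also downregulated. Those in this paragraph all come from the 12 lowest log2 fold changes of the naming rule, so they were chosen for falling. They are no separate evidence beside the list above, and any that belong to that list were already counted there. LTF (lactoferrin) changed by -3.03 on the log2 scale (SE 0.76, FDR 0.00773), LCN2 (lipocalin, an iron-chelator binding protein) by -2.73 (SE 0.63, FDR 0.00386) and CEBPE (a transcription factor of late granulocyte development) by -3.01 (SE 0.47, FDR 2.28e-05). S100A12, a calcium-binding protein abundant in neutrophils, went from a median of 2163 GeTMM to 485 GeTMM. Its log2 fold change of -3.18 was -2.87 without Moon's SF 6 d library, where it stood at 17690 GeTMM. ECATH-2, an antimicrobial cathelicidin, had the lowest log2 fold change of the genes that met the naming rule, at -4.50 (SE 0.88, FDR 0.000548), from a median of 985 GeTMM to 52.4 GeTMM. It belongs to a family of similar genes, and how the counting treated reads alike between them was not examined. BPI, a protein that binds bacterial endotoxin, changed by -2.69 (SE 0.69, FDR 0.00947), and RETN (resistin) by -3.35 (SE 0.66, FDR 0.000564). In Moon's SF 6 d library RETN stood at 4613 GeTMM and ECATH-2 at 9207 GeTMM, and without it they changed by -2.88 and -4.165. LTF, LCN2 and BPI stayed called without that library, at FDRs of 0.0199, 0.0165 and 0.0241. LTF and BPI were not called with all libraries and no term for horse. LYZ (lysozyme), made by both neutrophils and macrophages, changed by -2.72 (SE 0.59, FDR 0.00176).

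Of 10 megakaryocyte and mast cell genes tested, 3 genes of platelets and their precursors were downregulated in both fits, beside 1.71% of all genes. Each of the 3 was lower in all 7 horses, and 7 genes did not pass the test. The list median was -0.11 and -0.155, and 2 of the 10 were above 0. PPBP (platelet basic protein, a chemokine of platelet granules) went from 218 GeTMM (12.6 to 610) to 10.4 GeTMM (0 to 67.6), with a log2 fold change of -3.98 (SE 0.60, FDR 1.16e-05). GP9, a subunit of the platelet receptor for von Willebrand factor, changed by -2.21 (SE 0.34, FDR 1.62e-05). NFE2, a transcription factor of platelet formation, changed by -1.80 (SE 0.37, FDR 0.000913).

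**Figure D3:**
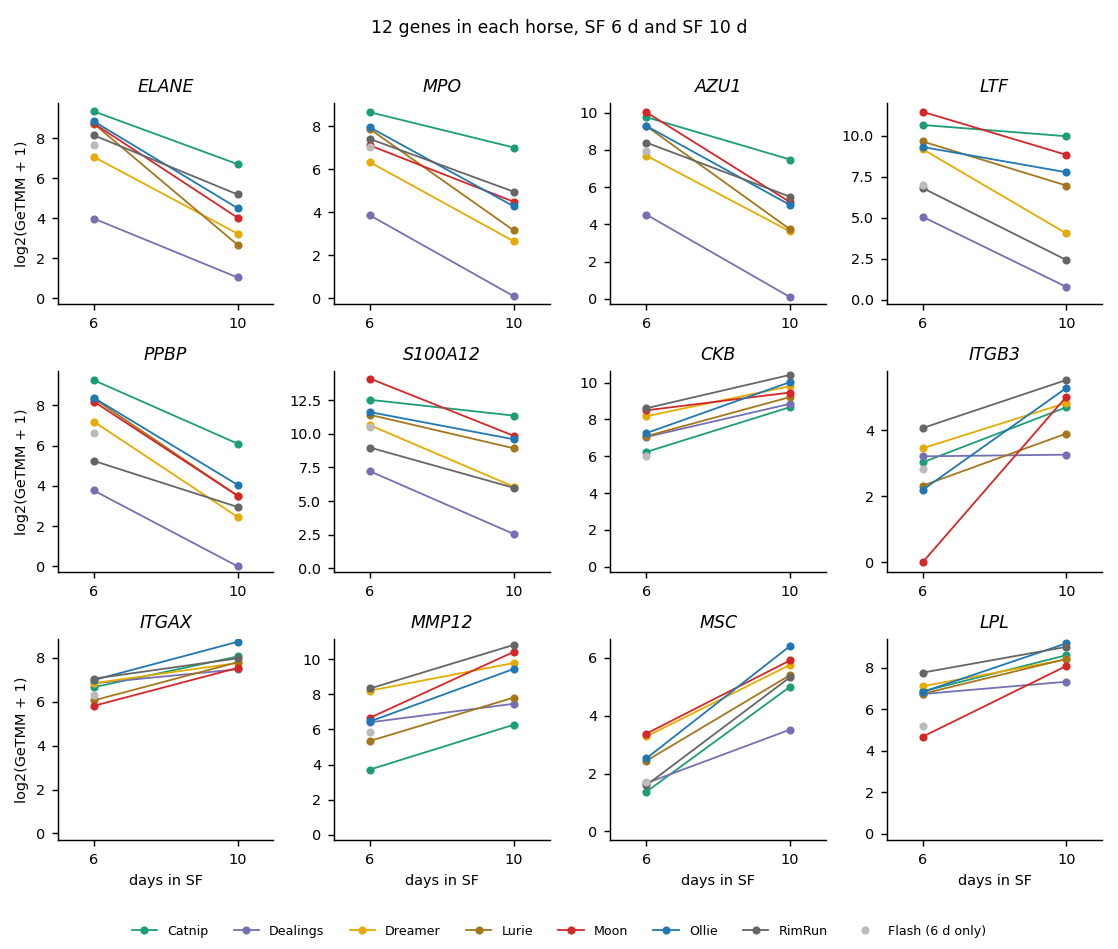
Each line joins the SF 6 d and SF 10 d libraries of 1 horse (x axis, days in SF) for 12 genes, with log2(GeTMM + 1) on the y axis and Flash shown at 6 d only. ELANE, MPO, AZU1, LTF, PPBP and S100A12 go down in all 7 horses and the other 6 genes go up in all 7; ITGB3 of Moon starts at 0.

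Upregulated genes were led by MSC (musculin, a transcription factor), at 1.58, 3.33 and 9.40 GeTMM at 6 d and 10.5, 41.4 and 84.1 GeTMM at 10 d. The groups did not overlap, which held for 0.295% of all genes tested. The log2 fold change was 3.01 (SE 0.41, FDR 1.42e-06), and 3.24 without Moon's SF 6 d library. SDC2 (syndecan, a heparan sulfate proteoglycan of the cell surface) changed by 2.11 (SE 0.39, FDR 0.000251), and SUCNR1, the receptor for succinate, by 2.10 (SE 0.35, FDR 5.93e-05). EDIL3, a secreted integrin ligand, was low at 6 d (0 to 2.61 GeTMM) and reached 2.52 to 12.1 GeTMM at 10 d, with a log2 fold change of 1.99 (SE 0.32, FDR 3.36e-05). NREP, a neuronal regeneration related protein, changed by 2.41 (SE 0.41, FDR 7.01e-05). It was listed at 0 in Moon's SF 6 d library, without which the change was 1.92. NPTX1, a secreted pentraxin best known from neurons, changed by 2.13 (SE 0.50, FDR 0.00384). These genes, like the 12 lowest of the naming rule, were chosen for moving the same way in all 7 horses.

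Of 17 osteoclast and fusion genes tested, 5 rose with all libraries, beside 6.07% of all genes, and these 5 were among 6 that rose without Moon's SF 6 d library, beside 3.68%. With all libraries 12 did not pass the test and 4 were below 0, with a median log2 fold change of 0.53 with Moon's SF 6 d library and 0.47 without. Without Ollie 3 were called, and in the SF-only fit 2, or 4 without Moon's SF 6 d library. CKB (brain-type creatine kinase, which supplies ATP in bone-resorbing cells) was at 64.6, 143 and 388 GeTMM at 6 d and 406, 704 and 1368 GeTMM at 10 d. The groups did not overlap, and the log2 fold change was 2.06 (SE 0.29, FDR 2.89e-06). ITGB3, the beta chain of the vitronectin receptor with which osteoclasts hold bone, went from 6.62 GeTMM (0 to 15.7) to 27.3 GeTMM (8.55 to 44.7), with a log2 fold change of 1.95 (SE 0.38, FDR 0.000461). Its value of 0 was again Moon's, and without that library the change was 1.51 (FDR 0.00256). TNFRSF11A (RANK, the receptor for the osteoclast differentiation ligand) changed by 1.19 (SE 0.29, FDR 0.00561). CA2 (carbonic anhydrase, which makes acid for resorption and is also an erythroid gene) changed by 1.95 (SE 0.51, FDR 0.0104). Its highest value at 10 d, 258 GeTMM, was Ollie's, and its FDR was 0.0562 without that horse. The fifth was DCSTAMP, a membrane protein needed for fusion, at a log2 fold change of 0.99 (SE 0.25, FDR 0.00781); it is named after its value was seen. The resorption enzymes did not pass the test: ACP5 (tartrate-resistant phosphatase) was at -0.65 (FDR 0.0904) and CTSK (cathepsin K) at 0.37 (FDR 0.481).

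Of 21 macrophage genes, 2 rose and 2 fell with all libraries, beside 6.07% and 3.88% of all genes. Without Moon's SF 6 d library 3 rose and 1 fell, beside 3.68% and 2.44%. ITGAX and LPL rose in both fits, beside 3.12%, and LYZ fell in both, beside 1.71%. ITGAX (the integrin chain CD11c) was at 55.1, 107 and 131 GeTMM at 6 d and 177, 221 and 422 GeTMM at 10 d, again without overlap, for a log2 fold change of 1.27 (SE 0.17, FDR 1.42e-06). LPL (lipoprotein lipase) went from 110 GeTMM (24.7 to 218) to 345 GeTMM (161 to 583), a log2 fold change of 1.77 (SE 0.39, FDR 0.00199). The pan-macrophage and alternative activation markers did not pass the test: CD68 was at -0.19 (FDR 0.383), CD163, the hemoglobin scavenger receptor, at -0.24 (FDR 0.606), and MRC1, the mannose receptor, at -0.02 (SE 0.29). The list median was -0.02 with all libraries and 0.22 without Moon's SF 6 d library.

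Among 26 genes of lipid uptake, lipid efflux and nuclear receptor function, 4 rose with all libraries, beside 6.07% of all genes. In both fits 2 of these rose, LPL and PPARGC1A, beside 3.12%. In the SF-only fit 1 rose. PPARGC1A, a coactivator of mitochondrial genes, went from 1.19 GeTMM (0 to 4.21) to 5.93 GeTMM (1.94 to 7.43), with a log2 fold change of 1.25 (SE 0.23, FDR 0.000274). Of 34 sterol synthesis genes 1 rose, FADS2, a fatty acid desaturase, at 0.75 (SE 0.23, FDR 0.0300), but FADS2 was not called without Moon's SF 6 d library (FDR 0.0882), nor without Ollie (FDR 0.122), Lurie, Flash or RimRun.

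Of 17 metalloproteinase and inhibitor genes 5 rose with all libraries, beside 6.07% of all genes, and 12 did not pass the test. In both fits 4 of the 5 rose, beside 3.12%, and the median was 0.54 and 0.38. Without Dreamer, and likewise without Lurie, 2 were called, without Catnip or Ollie 3, and in the SF-only fit 1. MMP12 (macrophage elastase) had the widest change, from 85.3 GeTMM (12.2 to 322) to 699 GeTMM (76.3 to 1806). Horses kept much of their order, Catnip being lowest and RimRun highest on both days, so the groups overlapped although all 7 horses rose. The log2 fold change was 2.35 (SE 0.57, FDR 0.00578). MMP2, a gelatinase typical of stromal cells, changed by 1.60 (SE 0.44, FDR 0.0151) in 5 of 7 horses. Lurie had the highest MMP2 value at 10 d, 99.0 GeTMM, beside a median of 1.80, and the FDR was 0.0980 without Lurie and 0.0700 without Dreamer.

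Stromal and matrix genes moved most in Lurie and Dreamer. Of 50 tested, 14 were upregulated with all libraries, beside 6.07% of all genes, and 1 was downregulated. In both fits 7 were upregulated, beside 3.12%. The medians were 0.84 with all libraries and 0.79 without Moon's SF 6 d library. With voom on recovered reads 8 rose in place of 14, without Lurie 5, without Dreamer 6 and without Dealings, Ollie or RimRun 9. In the SF-only fit 3 rose. Within single horses the median change over these genes was 2.38 in Lurie and 1.86 in Dreamer, against 0.02 to 0.54 in the other 5 horses. The defining markers COL1A1, COL1A2, COL3A1, DCN and LUM had a mean log2(GeTMM + 1) of 0.044 to 4.92 at 6 d and 0.104 to 9.39 at 10 d, with Lurie highest at both times. COL1A1, a chain of the main fibrillar collagen, was at 71.7 and 1359 GeTMM in Lurie and at 2.21 and 92.0 GeTMM in Dreamer (6 d and 10 d). In Catnip, Moon and Ollie it was below 1 GeTMM at both times, and over all horses its log2 fold change of 1.94 (SE 0.84) did not pass the test (FDR 0.123).

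The 3 matrix genes with the lowest FDR rose in all 7 horses. CCN2 (connective tissue growth factor) went from 6.03 GeTMM (0.892 to 37.6) to 33.4 GeTMM (10.6 to 148), for a log2 fold change of 2.10 (SE 0.48, FDR 0.00312). LOX (lysyl oxidase, which cross-links collagen) went from 25.0 GeTMM (7.58 to 52.4) to 56.0 GeTMM (47.5 to 103.5), a change of 1.20 (SE 0.27, FDR 0.00229). TNC, the matrix glycoprotein tenascin-C, was under 1 GeTMM in all SF 6 d libraries. It reached 41.1 GeTMM in Lurie and 16.5 GeTMM in Dreamer at 10 d, beside 0.0973 to 2.22 GeTMM in the others, with a log2 fold change of 1.60 (SE 0.35, FDR 0.00215). The part of stromal cell number in these results was not tested.

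**Figure D4:**
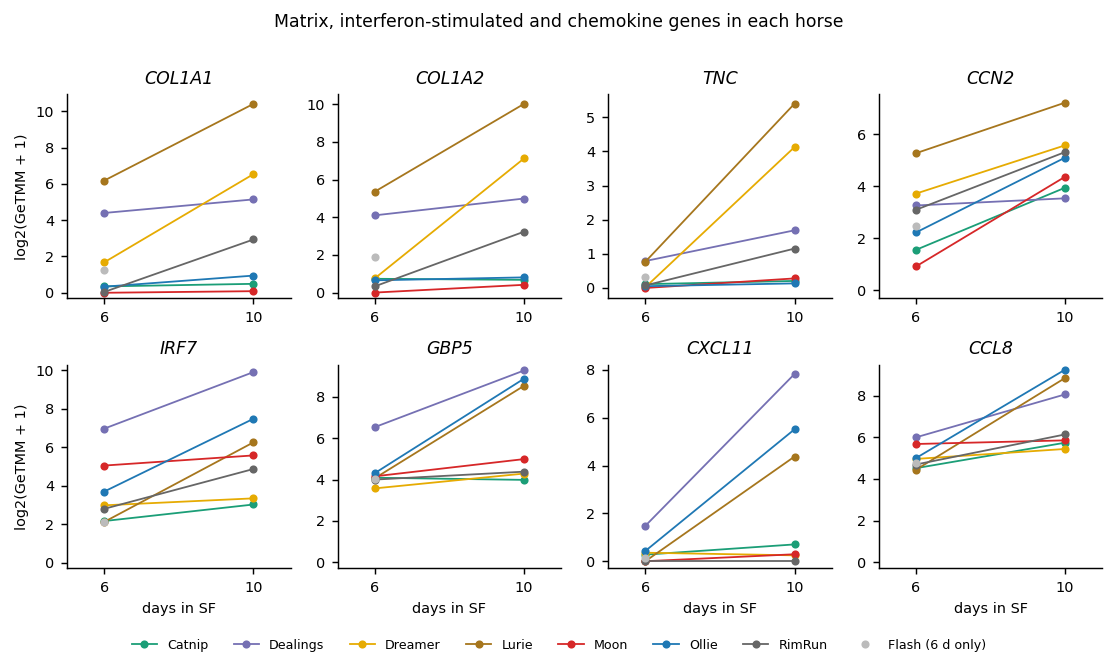
Each line joins the SF 6 d and SF 10 d libraries of 1 horse (x axis, days in SF) for 8 genes, with log2(GeTMM + 1) on the y axis and Flash shown at 6 d only. COL1A1, COL1A2 and TNC are highest in Lurie and Dreamer at 10 d, while GBP5, CXCL11 and CCL8 are highest in Dealings, Ollie and Lurie.

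Levels of the 34 interferon-stimulated genes tested differed widely between horses. All 34 had a log2 fold change above 0 in both fits, with a median of 0.98 and 0.78. With all libraries 6 were upregulated, beside 6.07% of all genes, and 3 in both fits, beside 3.12%. Without Lurie 1 was called, and without Ollie 1. The SF-only fit called 0 by limma, 26 having an unadjusted p under 0.05, and 1 without Moon's SF 6 d library. The median change over the list was 1.84 in Dealings, 1.76 in Lurie, 1.70 in Ollie and 1.16 in Moon, against 0.00 to 0.29 in Catnip, Dreamer and RimRun. GBP5, an interferon-induced GTPase, was at 10.9 to 92.0 GeTMM at 6 d. At 10 d it reached 621 GeTMM in Dealings, 471 in Ollie and 371 in Lurie, and 14.8 to 30.8 GeTMM in the other 4 horses. Its log2 fold change was 1.92 (SE 0.52, FDR 0.0132), with an FDR of 0.0905 without Ollie and 0.0815 without Lurie. IRF7, a transcription factor that drives interferon production, changed by 2.16 (SE 0.63, FDR 0.0207), and was not called without Ollie (FDR 0.0712) or without Lurie. Neither GBP5 nor IRF7 was called in the fit with library weights, and IRF7 was not called by voom.

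Of 28 chemokine and receptor genes 7 rose with all libraries, beside 6.07% of all genes, and 6 of them in both fits, beside 3.12%. With all libraries 21 did not pass the test and 8 were below 0. The medians were 0.26 and 0.29. Without Moon's SF 6 d library CCR2, a receptor for CCL2 named after its value was seen, fell. Without Ollie 2 genes of the list were called and without Lurie 4. The SF-only fit called 0 by limma, 11 having an unadjusted p under 0.05, and 1 without Moon's SF 6 d library. CXCL11, an interferon-induced attractant of T cells, was at 0 to 1.79 GeTMM at 6 d. At 10 d it was at 226 GeTMM in Dealings, 44.7 in Ollie and 19.8 in Lurie and below 1 GeTMM in the rest, for a log2 fold change of 2.35 (SE 0.53, FDR 0.00257) with 5 of 7 horses higher. CCL8, a monocyte attractant, went from 28.3 GeTMM (20.8 to 63.1) to 69.7 GeTMM (42.5 to 613) and rose in all 7 horses, a log2 fold change of 1.97 (SE 0.41, FDR 0.00128), with Ollie, Lurie and Dealings highest. CCL2, the classical monocyte chemoattractant, went from 468 GeTMM (342 to 1596) to 1756 GeTMM (372 to 3961), a change of 1.48 (SE 0.38, FDR 0.00910). Its FDR was 0.0562 without Ollie, the highest horse at 10 d.

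Of 14 complement genes, 4 rose in both fits, beside 3.12% of all genes, and 1 fell with all libraries only. The medians were 0.53 and 0.57. The SF-only fit called 0 by limma, 7 having an unadjusted p under 0.05, and 3 without Moon's SF 6 d library. C1R, a protease of the first complement component, went from 1.36 GeTMM (0.185 to 6.03) to 9.27 GeTMM (0.384 to 70.1), with a log2 fold change of 1.94 (SE 0.41, FDR 0.00130). It rose in all 7 horses, but unevenly. At 10 d it was at 70.1 GeTMM in Dealings, 43.0 in Ollie, 26.9 in Lurie and 9.27 in Dreamer. In Catnip, Moon and RimRun it was at 0.384 to 1.58 GeTMM. SERPING1, the inhibitor of that protease, changed by 1.34 (SE 0.31, FDR 0.00305). At 10 d it too was highest in Dealings (23.3 GeTMM), Lurie (17.8) and Ollie (15.1), beside 0.0634 to 2.95 GeTMM in the rest. C3AR1, a receptor for an activation fragment of complement, changed by 1.28 (SE 0.33, FDR 0.00963) with all libraries and by 0.79 (FDR 0.0445) without Moon's SF 6 d library, where it was lowest.

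Of 41 inflammatory cytokines and regulators, 5 rose and 1 fell with all libraries, and 2 rose in both fits, beside 3.12% of all genes. The share called with all libraries lay above the 9.95% of all genes, but 2 rose without Ollie, 2 without Moon, 3 without Lurie and 1 in the SF-only fit. TNFAIP6, a hyaluronan-binding protein induced by inflammation, went from 12.5 GeTMM (4.95 to 18.1) to 55.2 GeTMM (15.5 to 108), with a log2 fold change of 1.74 (SE 0.36, FDR 0.00121). TNFSF13B, a survival factor for B cells, changed by 1.21 (SE 0.30, FDR 0.00778), with 6 of 7 horses higher. At 10 d it was at 75.65 GeTMM in Dealings, 73.2 in Lurie and 64.7 in Ollie, and at 13.9 to 22.55 GeTMM in the rest. Its FDR was 0.0477 without Lurie, and the fit with library weights did not call it. The cytokines IL1B at -0.56 (FDR 0.227), TNF at 0.38 (FDR 0.238) and IL10 at -0.48 (FDR 0.251) did not pass the test.

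In several groups the median or the calls moved without Moon's SF 6 d library, and the calls also without other horses. Of 67 cytosolic ribosomal protein genes, which had a median length of 594 bases, 30 were downregulated with all libraries and 0 without that library, by limma on log values or by voom. Without that library 28 had an unadjusted p under 0.05, the median was -0.27 (-0.57 with all libraries), and 66 of 67 were below 0. The median change over these genes was -2.69 in Moon and between -0.51 and 0.21 in the other 6 horses. Leaving out whole horses also moved the count, to 0 without Ollie (64 having an unadjusted p under 0.05 and the median staying at -0.57), 3 without Catnip, 4 without Lurie, 13 without Dealings or Flash and 44 without RimRun, and the SF-only fit called 0, with 0 at an unadjusted p under 0.05. RPL7, of the large subunit, was at 5272 GeTMM in Moon's library and at 1213 to 1885 GeTMM in the other SF 6 d libraries. Respiratory chain subunits, of which 64 were tested, moved from a median of -0.27 to 0.01, and the single downregulated gene, COX6C (FDR 0.0462), was at 0.235 without the library and was not called without Catnip, Flash, Lurie, Ollie or RimRun either. Of 31 proteasome subunits 0 were called by limma or voom in either fit, 4 had an unadjusted p under 0.05 with all libraries and 3 without, and the median moved from -0.16 to 0.01. The 4 downregulated genes among 52 lysosomal genes, and the 2 among 34 translation factors, were not called without it. By limma 0 lysosomal genes were called without Lurie or without Ollie, 12 having an unadjusted p under 0.05 in each, and 0 translation factors without Catnip, Dealings, Lurie or Ollie, with 19 to 22 at that p.

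**Figure D5:**
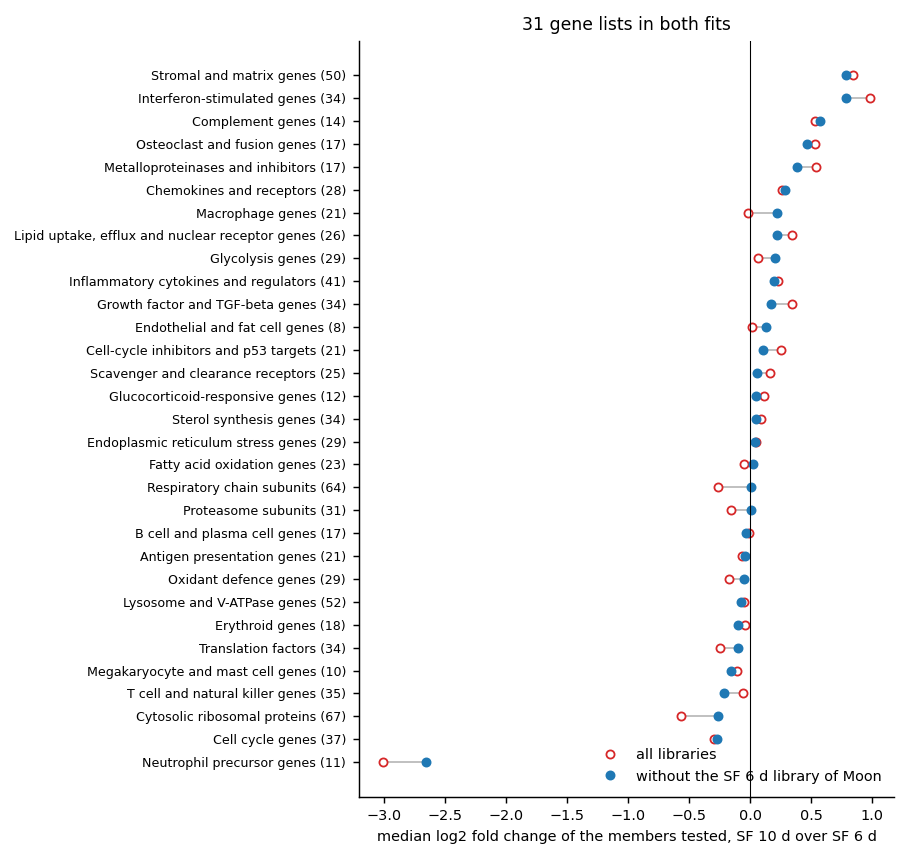
Each row is 1 gene list with its number of tested members; the x axis gives the median log2 fold change (SF 10 d over SF 6 d) with all libraries (open) and without Moon's SF 6 d library (filled). Neutrophil precursor genes lie at -3.01 and -2.66, interferon-stimulated genes at 0.98 and 0.78 and respiratory chain subunits at -0.27 and 0.01.

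Lists of other cell types and of proliferation had 0 to 3 genes called each, beside 9.95% of all genes, and nothing is read from these counts. Of 35 T cell and natural killer genes 0 were called by limma with all libraries, 9 having an unadjusted p under 0.05, and voom called 1. Without Moon's SF 6 d library 1 rose, the T cell antigen CD7, named after its value was seen. Of 17 B cell and plasma cell genes 1 was called, PRDM1, a transcription factor of plasma cells (FDR 0.0229), and its call was lost without Moon's SF 6 d library (FDR 0.114) and without Ollie (FDR 0.105). Of 18 erythroid genes CA2 alone was called, and of 8 endothelial and fat cell genes TIE1 alone, an endothelial receptor, at -0.86 (SE 0.18, FDR 0.00130); both calls held in both fits. Of 37 cell cycle genes 2 fell with all libraries, with medians of -0.29 and -0.28, and 0 were called by limma without Ollie or without Catnip, 7 and 3 having an unadjusted p under 0.05. AURKB, a mitotic kinase, went from 14.5 GeTMM (4.05 to 29.4) to 7.88 GeTMM (1.64 to 11.8), a log2 fold change of -0.90 (SE 0.25, FDR 0.0166), but with an FDR of 0.0682 without Ollie and 0.0555 without Catnip. CDKN2B, an inhibitor of cell cycle entry, rose by 1.01 (SE 0.21, FDR 0.00103). It was 1 of 3 called among 21 cell-cycle inhibitors and p53 targets, all higher, of which CDKN2B and CDKN2A, another inhibitor of cell cycle entry, were called in both fits. Without Ollie 1 of the list was called, and in the SF-only fit 0 by limma, 5 having an unadjusted p under 0.05. CDKN2A changed by 0.86 (SE 0.21, FDR 0.00665), with an FDR of 0.0561 without Lurie and 0.0502 without Ollie.

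Among 29 genes of glycolysis and the pentose phosphate path, 5 rose and 4 fell with all libraries, beside 6.07% and 3.88% of all genes. In both fits 1 rose and 2 fell, beside 3.12% and 1.71%. By limma 0 rose without Lurie or without Ollie, with 11 genes of the list at an unadjusted p under 0.05 in each, 1 rose without Moon, and 2 rose without Catnip or Flash, with voom, with no filter or after rescaling, while 2 to 4 fell in each of these. The SF-only fit called 0, with 8 at that p. TKT (transketolase) went from 436 GeTMM (288 to 1068) to 255 GeTMM (201 to 301) and fell in all 7 horses, a log2 fold change of -0.90 (SE 0.15, FDR 3.97e-05). HK3, a hexokinase of myeloid cells, changed by -1.78 (SE 0.42, FDR 0.00398). PFKP, a phosphofructokinase, was the gene that rose in both fits, by 0.55 (SE 0.14, FDR 0.0104), though not without Lurie (FDR 0.0655) or Ollie (FDR 0.0532). Of 29 oxidant defence genes 3 fell and 1 rose with all libraries, beside 3.88% and 6.07% of all genes. In both fits 2 fell, beside 1.71%. PRDX5, a peroxiredoxin, changed by -0.87 (SE 0.18, FDR 0.00128), and NCF4, a subunit of the phagocyte oxidase, by -0.70 (SE 0.18, FDR 0.00950), the latter not called without Moon (FDR 0.0620). Of 23 fatty acid oxidation genes 1 rose and 2 fell with all libraries, beside 6.07% and 3.88% of all genes. By limma or voom 0 were called without Moon's SF 6 d library, 5 having an unadjusted p under 0.05.

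Of 34 growth factor and TGF-beta genes 6 rose, beside 6.07% of all genes, and none fell, and 3 rose in both fits, beside 3.12%. The count was 1 without Lurie, 1 without Moon, 2 without Ollie, 3 without Catnip and 1 in the SF-only fit. IGFBP6, which binds insulin-like growth factors, went from 11.4 GeTMM (6.57 to 60.9) to 38.1 GeTMM (20.4 to 99.7), with 6 of 7 horses higher and a log2 fold change of 1.60 (SE 0.40, FDR 0.00685) that was not called without Lurie (FDR 0.0504) or Ollie (FDR 0.0537). SMAD7, an inhibitor of TGF-beta signalling, changed by 0.63 (SE 0.15, FDR 0.00599), with an FDR of 0.111 without Moon. Of 25 scavenger and clearance receptors 3 rose with all libraries, beside 6.07% of all genes. Among them were ITGB3 and COLEC12, a scavenger receptor with a collagen-like stretch, at 1.31 (SE 0.37, FDR 0.0160). These 2 rose in both fits, beside 3.12%, but COLEC12 was not called without Moon (FDR 0.0684), Dreamer or RimRun. Of 12 glucocorticoid-responsive genes 2 rose in both fits, beside 3.12% of all genes. PER1, a clock gene, changed by 0.58 (SE 0.17, FDR 0.0216) and was not called without Ollie (FDR 0.0712), Catnip or Lurie. KLF9, a transcription factor, changed by 0.95 (SE 0.22, FDR 0.00398) with 5 of 7 horses higher. It was listed at 0 in Moon's SF 6 d library, without which the change was 0.67. The SF-only fit called 0 of the list by limma, 2 having an unadjusted p under 0.05, and 1, PER1, without Moon's SF 6 d library.

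Of 21 antigen presentation genes 2 were called and of 29 endoplasmic reticulum stress genes 2, both shares below the 9.95% of all genes. TAP1, a peptide transporter, rose with all libraries (0.85, SE 0.23, FDR 0.0128) but not without Moon's SF 6 d library (FDR 0.0579) or without Ollie (FDR 0.0910). CD1C, which presents lipids, fell in both fits, by -0.42 (SE 0.12, FDR 0.0162) with all libraries, from a median of 0.903 GeTMM to 0.301 GeTMM; it was not called without Ollie (FDR 0.0622) or Moon (FDR 0.0501). Of the endoplasmic reticulum stress genes 1 rose and 1 fell, and the latter, XBP1, a transcription factor of the unfolded protein response, fell in both fits (-0.42, SE 0.11, FDR 0.0132), but not without Ollie (FDR 0.0544) or Moon (FDR 0.0524).

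The same interval in ISF was used to ask whether a change differed between the fluids. With the same horses, 2117 genes (14.5%) were called between 6 d and 10 d in ISF, and for 270 genes (1.85%) the change itself differed between ISF and SF. Without Moon's SF 6 d library the difference was called for 380 genes (2.61%), and leaving out whole horses moved the count between 5, without Ollie, and 647, without Moon. Among the 84 genes that the naming rule gives, the test of the difference was passed by 8, and none of the 8 kept the call in all fits that leave out 1 horse. CKB changed by 2.06 in SF and 0.51 in ISF (difference -1.55, SE 0.41, FDR 0.0364), but the call was lost in 6 of the 8 fits that leave out 1 horse, with an FDR of 0.162 without Ollie, 0.0897 without Catnip, 0.0814 without Lurie, 0.0797 without Dreamer, 0.0768 without RimRun and 0.0650 without Flash. Its median level was 143 and 704 GeTMM in SF and 1012 and 1442 GeTMM in ISF. CCL8 changed by 1.97 in SF and by -0.67 in ISF (difference -2.63, SE 0.58, FDR 0.0150), with an FDR of 0.129 without Ollie and 0.0668 without Lurie. TNFAIP6 changed by 1.74 in SF and by -0.82 in ISF (difference -2.56, SE 0.51, FDR 0.00750), with an FDR of 0.0700 without Ollie. The neutrophil genes ELANE (FDR 0.182) and MPO (FDR 0.167) did not pass this test, and in ISF they changed by -2.07 and -1.56. Of the 11 neutrophil precursor genes 10 were downregulated and 1 was upregulated in ISF, with a median of -2.34. Of the 17 osteoclast and fusion genes 5 were upregulated and 0 downregulated in ISF by limma, with a median of 0.64. Over all genes 14.5% were called in ISF in either direction.

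The preceding interval in SF, from 96 h to 6 d, had 558 called genes (3.83%). It shares the SF 6 d libraries with the comparison above, so values are set side by side only. ELANE changed by -1.28 (FDR 0.152) from 96 h to 6 d and by -3.92 from 6 d to 10 d. CKB changed by 1.07 (FDR 0.0154) and then by 2.06, and ITGAX by 0.14 (FDR 0.656) and then by 1.27.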

How the data were processed

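RNA-seq libraries were grouped by fluid, time and horse from their labels. The authors trimmed reads with TrimGalore, aligned and counted them per gene with STAR 2.7.2a on the EquCab build given in the labels, and deposited GeTMM values, an RPKM-like unit (reads per kilobase, scaled between libraries by trimmed means). The members and gene lists were chosen with earlier results of these data known. Values were tested as log2(GeTMM + 1) with limma 3.58.1 in R 4.3.3 (eBayes with trend), all 68 libraries entering together with a term for each of 9 groups and for each horse. Genes with at least 0.5 GeTMM in 7 libraries were tested, and calls were made at a two-sided Benjamini-Hochberg FDR under 0.05. Fold changes understate low genes. The study names a count test, which was not used because the values are not counts. Whole reads, within 0.02 of a read, were recovered for 24064 of 24065 genes (99.996%) and used for depth and for voom, which took the scaling carried by the deposited values; 13157 of 30371 entries had no symbol, and 77 symbols shared by several entries were left out of lists. Fits were tested on simulated data. Pairing is by animal, and deviations of a horse's 6 d and 10 d libraries correlated at 0.26 to 0.70. Moon's 10 d library correlated at 0.259 with its own 6 d library and at up to 0.256 with another horse's. For the other horses that second value was at most 0.218. Named genes were the 12 highest and 12 lowest log2 fold changes among called, uniquely named genes with a mean of at least 5 GeTMM in 1 group and the same direction in all 7 horses, plus up to 3 called members of each list by FDR. A gene that the rule names is not reported here.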

Additional observations from a re-analysis of the deposited data

Results flagged for a closer look

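In a group of 4 to 10 libraries, a value was marked when its gap to the nearest other value was unusually wide by Dixon's test, which chance does in about 1 group in 20. Of 54 groups tested, 6 were marked, all at SF 6 d. Moon's library was marked for its GeTMM sum of 2321940, for its 12797 genes above 0, and for NREP and ITGB3, both listed at 0 GeTMM. Dealings was marked for AZU1 at 22.03 GeTMM and ELANE at 14.95 GeTMM, the lowest of the 8 horses.

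For 2 of the 24 genes that the naming rule takes as highest or lowest, the change from 6 d to 10 d differed between ISF and SF. They were CKB, with a difference of -1.5495 on the log2 scale (FDR 0.0364), and CCL8, with -2.6349 (FDR 0.0150). Without the term for horse the FDR was 0.0922 for CKB and 0.0669 for CCL8.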

How the results depend on the processing

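Without a term for horse (no replicate block) 696 genes were called, 465 upregulated and 231 downregulated, and 33 differed between the fluids. With only the SF 6 d and 10 d libraries, the replicate block of horse gave 174 calls (93 and 81), and 558 (302 and 256) without Moon's SF 6 d library; without the block there were 3 (3 and 0), and 37 (32 and 5) without that library. Leaving out that library from all 68 gave 892 (536 and 356), or 912 (546 and 366) with median-of-ratios scaling and 903 (488 upregulated) with voom on recovered reads; the last pair, and the unblocked fit of 14 libraries, were added after seeing the data. Requiring a change of at least 1 left 345 (216 and 129). Leaving out 1 horse gave 595 to 1481 calls, 376 to 906 upregulated and 219 to 575 downregulated, and 5 to 647 genes that differed between the fluids; the lowest counts of calls were without Ollie (595), Lurie (768) and Moon (778). A pseudocount of 0.1, the other filters, rescaling, library weights and voom with all libraries gave 1254 to 1456 calls. No direction of the 84 named genes reversed in any alternative; 61 stayed called without Moon's SF 6 d library and 45 in all 8 fits that leave out a horse. Of the 24 genes that the naming rule takes as highest or lowest, 24 and 23 did, IRF7 being the exception. That rule already required a call with all libraries and the same direction in all 7 horses. Values near 0 rest on few reads: 1 read on 1 kilobase was worth 0.0455 to 0.0979 GeTMM.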
